A study of Rattus norvegicus with 13 samples.

Results

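The windows described here are the 174 stretches of 1000 bases on rat chromosomes 1 to 20 whose MeDIP-seq signal was at least 4-fold lower in DDT lineage sperm than in control lineage sperm. They are 174 of 2618741 windows on those chromosomes, and the files hold 2782040 windows in all. Signal is given as CPM, the counts of a window per 1000000 counts of its library. A window was taken where the mean of control sperm 1 and 2 was at least 0.2 CPM and at least 4 times the mean of DDT sperm 1 to 3. These windows are called the lower windows. The windows were chosen by the CPM of those 5 sperm libraries, so these values are a description and carry no test. DDT sperm 4, control sperm 3 and the 6 morula libraries took no part in the choice.

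The study traced DNA methylation from the sperm of rats with an ancestral exposure into early embryos. Gestating F0 females of the outbred Hsd:Sprague Dawley stock were injected intraperitoneally with the insecticide DDT or with its vehicle DMSO, daily from embryonic day 8 to 14, and no later generation was treated. The groups were DDT sperm (4 libraries), control sperm (3), DDT morula (3) and control morula (3). All sperm came from the epididymis of F3 males of these lineages. All morulae were made by injecting F3 sperm into eggs of superovulated Sprague Dawley females (ICSI), so the paternal genome of a morula comes from the lineage and the maternal one from the egg donor. Animals of the lineages were aged to 1 year. The labels used here give no number of embryos per morula library, and no label says that replicates came from separate animals. The p-values therefore measure the spread between these samples, which may be technical.

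MeDIP-seq pulls down DNA fragments with an antibody to 5-methylcytosine and counts them along the genome. A window gives more signal the more of its CpG sites are methylated and the more of them it holds. It is a relative measure and not a methylation percentage. Mature sperm DNA is heavily methylated over most of the genome outside CpG islands. Much of that methylation is lost from the paternal genome after fertilization, with imprinted regions and some repeats as known exceptions.

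Libraries held 30386626 to 193750804 counts. The smallest were control sperm 3 and DDT sperm 4, the latest-numbered library of each sperm group and the pair that the rule left out. DDT sperm 4 had no count in 11% and control sperm 3 none in 12.3% of the windows of chromosomes 1 to 20, against 4.68% to 5.85% in the other 11 libraries. A floor of 3 counts is 0.0891 CPM in DDT sperm 4 and 0.0987 CPM in control sperm 3, and it lies at 0.0155 to 0.0286 CPM in the 5 sperm libraries of the rule. The floor and the intervals given for counts reflect counting error alone, as copies of 1 fragment could not be told apart.

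The lower windows were regions of low to moderate signal in control sperm. Their control mean had a median of 0.274 CPM and ran between 0.2 and 3.76 CPM, and the DDT mean of the same windows had a median of 0.0554 CPM, between 0.00298 and 0.797 CPM. Among all 1608611 windows with a control mean of at least 0.2 CPM, called windows with sufficient control signal, the median was 0.43 CPM in DDT sperm and 0.436 CPM in control sperm. The lower windows thus lay in the weaker part of the range that the rule admits. In 165 of the 174, each of DDT sperm 1 to 3 was below both control libraries of the rule. In the other 9 these libraries overlapped, as they did in 1204082 of the 1608611 windows with sufficient control signal. A 4-fold difference of the means largely fixes this order, so nothing is read from it. The 3 windows just inside the fold threshold differed by 4.004 to 4.0067-fold and the 3 just outside it by 3.9805 to 3.9888-fold. At the level threshold, control means were 0.20003 to 0.2007 CPM just inside and 0.19983 to 0.19999 CPM just outside.

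The rule passes 0.00664% of the windows of chromosomes 1 to 20. Its mirror image, at least 4-fold higher in DDT sperm, passes 159 windows or 0.00607%. Scaling the libraries by TMM, a factor computed by edgeR from the bulk of windows, left 101 of the 174. The count depended on which libraries entered the means. It was 428 without DDT sperm 1, 344 without DDT sperm 2, 477 without DDT sperm 3, 691 without control sperm 1 and 397 without control sperm 2. The mirrored rule then passed 232, 183, 162, 652 and 543 windows, so the balance of the directions also changed with the libraries. With all 7 sperm libraries 94 windows passed, of which 52 are among the 174, and 83 passed the mirrored rule.

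**Figure D1:**
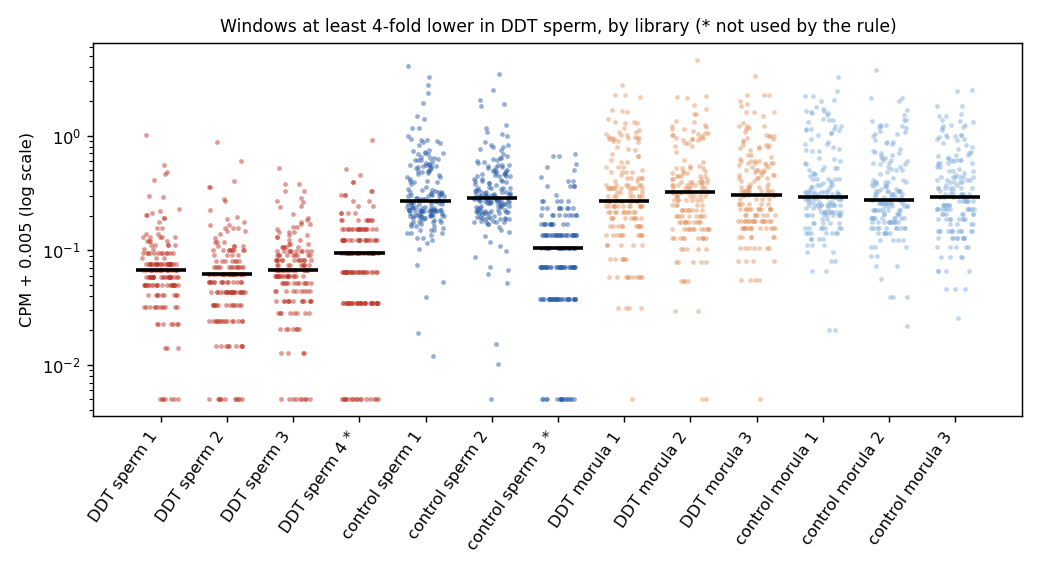
CPM of the 174 lower windows in each library, on a log axis after adding 0.005, with 1 point per window and a black bar at the median; asterisks mark the 2 sperm libraries that the rule did not use. Medians are 0.0572 to 0.0625 CPM in DDT sperm 1 to 3 and 0.263 to 0.284 CPM in control sperm 1 and 2, while DDT sperm 4 (0.0891 CPM) and control sperm 3 (0.0987 CPM) lie side by side.

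The strongest lower windows lay within a short stretch of chromosome 14. The window at 101988001 to 101989000 had 0.402, 0.353, 0.28 and 0.267 CPM in DDT sperm 1 to 4, against 2.77, 2.03 and 0.296 CPM in control sperm 1 to 3. Control sperm 1 and 2 stood far above all DDT sperm libraries, and control sperm 3 lay among the DDT values. The difference of the rule was 6.95-fold, a log2 ratio of -2.80. In morulae the same window had 1.4, 1.84 and 2 CPM in the DDT group and 2, 1.51 and 1.49 CPM in the control group, and these groups overlapped (log2 difference 0.08, SE 0.20).

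Its neighbours behaved alike in sperm. The window at 101992001, the one of highest control signal among the 174, had 1, 0.877, 0.514 and 0.92 CPM in DDT sperm 1 to 4, against 4.07, 3.45 and 0.658 CPM in control sperm 1 to 3. The window at 101990001 had 0.545, 0.601, 0.374 and 0.505 CPM in DDT sperm, against 3.27, 2.48 and 0.527 CPM in control sperm. At 101989001 the values were 0.456, 0.401, 0.374 and 0.297 CPM in DDT sperm and 2.38, 1.9 and 0.263 CPM in control sperm. In all of these windows the third control library was as low as the DDT libraries.

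A second group of strong windows lay on chromosome 16. The window at 64931001 to 64932000 had 0.482, 0.353, 0.0545 and 0.445 CPM in DDT sperm 1 to 4, against 1.93, 1.8 and 0.658 CPM in control sperm 1 to 3. Here all 4 DDT sperm libraries lay below all 3 control sperm libraries, with DDT sperm 3 the lowest. Next to it, the window at 64930001 had 0.0179, 0.0381, 0 and 0.0297 CPM in DDT sperm, against 0.491, 0.454 and 0 CPM in control sperm. That window had a count in neither DDT sperm 3 nor control sperm 3, and 0.949 to 1.01 CPM in DDT morulae and 0.697 to 1.14 CPM in control morulae.

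The windows with the largest fold were nearly empty in DDT sperm. With the DDT mean raised to the floor of 3 counts per library where it was below, the 5 largest differed by 12.3 to 18-fold. The window at 5265001 of chromosome 14 had 0.0268, 0.0381, 0 and 0.0297 CPM in DDT sperm 1 to 4, against 0.352, 0.444 and 0.0987 CPM in control sperm 1 to 3. It belongs to the windows in which the groups separate over all 7 sperm libraries. At 64977001 of chromosome 16, DDT sperm had 0, 0.0191, 0.0234 and 0.119 CPM, against 0.304, 0.444 and 0.0329 CPM in control sperm, so there the libraries outside the rule ran the other way.

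In 5 lower windows DDT sperm 1 to 3 held 3 counts or fewer in all. Any window of sufficient control signal that is so empty passes the rule, so these are all such windows among the 1608611. The mirrored set held 8 windows that were as empty in control sperm 1 and 2. On chromosome 6 the window at 52199001 to 52200000 had 1, 0, 0 and 0 counts in DDT sperm 1 to 4, against 44, 48 and 4 counts in control sperm 1 to 3. Its neighbour at 52201001 had 1, 0, 0 and 0 counts in DDT sperm and 23, 55 and 1 counts in control sperm. Both are thin in every tissue, with 1 to 9 counts in DDT morula libraries and 3 to 16 in control morula libraries.

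The other windows near 0 differed in how the third control library behaved. At 67489001 of chromosome 5, DDT sperm had 2, 0, 0 and 0 counts, against 32, 58 and 0 counts in control sperm. At 125152001 of chromosome 7, DDT sperm had 0, 2, 1 and 6 counts, against 45, 30 and 17 counts in control sperm. In CPM this was 0.178 in DDT sperm 4 and 0.559 in control sperm 3, so the held-out pair differed in the same direction, at a smaller fold. At 60534001 of chromosome 18, DDT sperm had 0, 0, 2 and 4 counts, against 2, 106 and 5 counts in control sperm, and its signal in control sperm rested mostly on control sperm 2.

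Windows carried by a single control library were a minority. In 21 lower windows (12.1%) control sperm 1 was at least 2 times control sperm 2, and in 21 others (12.1%) control sperm 2 was at least 2 times control sperm 1. Among all windows with a control mean of at least 0.2 CPM these shares were 0.512% and 0.485%. The window at 5731001 of chromosome 10 is the plainest case, with 0, 1, 3 and 0 counts in DDT sperm 1 to 4, against 78, 0 and 0 counts in control sperm 1 to 3. At 60532001 of chromosome 18, DDT sperm had 0.0268, 0.0191, 0.0156 and 0.0594 CPM, against 0.00691, 0.826 and 0.362 CPM in control sperm, so control sperm 1 was there the lowest of all 7 libraries. In the other 132 windows the 2 control libraries of the rule lay within 2-fold of each other.

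The sperm libraries outside the rule gave a separate look at the direction. With 1 library on each side no test of the lineages was possible, and counts are given with their background. Of the 174 lower windows, 89 were lower in DDT sperm 4 than in control sperm 3, 81 were higher and 4 were equal. That is 51.1% lower, beside 46.8% lower and 46.2% higher among all windows of chromosomes 1 to 20, and 49.4% lower among those with sufficient control signal. Differences of at least 2-fold were seen downward in 53 lower windows (30.5%, background 14%) and upward in 37 (21.3%, background 15.3%). Both shares exceeded their background, and the 9.38% and 11.2% among windows with sufficient control signal. The lower windows had medians of 0.0891 CPM in DDT sperm 4 and 0.0987 CPM in control sperm 3, against 0.327 and 0.329 CPM in those windows. The backgrounds are thus not matched for counts, and nothing is read from either excess. Where the pair held at least 10 counts, 23 of 39 lower windows were lower in DDT sperm 4 (59%, background 49.7%).

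Pooled over the 174 windows the pair differed by less than the libraries of the rule, which the choice of windows makes likely. DDT sperm 4 held 606 and control sperm 3 held 664 counts, a DDT over control ratio of 0.823 per count sequenced, with a 95% counting interval of 0.736 to 0.921. Over the 132 windows whose control sperm 1 and 2 lay within 2-fold of each other it was 0.932 (0.821 to 1.06), with 62 lower and 68 higher. The summed signal was 14.6, 12.5, 13.8 and 18 CPM in DDT sperm 1 to 4, and 74.5, 69.8 and 21.9 CPM in control sperm 1 to 3. DDT sperm 4 was therefore the highest of the DDT libraries but nearer to them than to control sperm 1 and 2. Control sperm 3 lay far below control sperm 1 and 2. In the mirrored set the pair gave a ratio of 1.38 (1.28 to 1.49), again in the direction of that set's rule.

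Window by window, control sperm 3 was mostly not high where control sperm 1 and 2 were. It lay at 0.5 times their mean or less in 135 lower windows (77.6%), against 32.9% of all windows with sufficient control signal, and its median ratio to that mean was 0.275, against 0.72. In 91 lower windows (52.3%) it was at or below the highest of DDT sperm 1 to 3, against 68.8% of windows with sufficient control signal. In 23 (13.2%) it reached at least the lower of control sperm 1 and 2, against 40.3%. DDT sperm 4 had a median of 1.27 times the mean of DDT sperm 1 to 3, against 0.787 among windows with sufficient control signal. It was above the highest of DDT sperm 1 to 3 in 78 of the 174 lower windows, against 489758 of the 1608611. Both held-out libraries were thus less extreme than those of the rule. The rule took windows where control sperm 1 and 2 were high and DDT sperm 1 to 3 low. A library outside the choice is then likely to be less extreme, so nothing is read from this about the held-out libraries. At the median control level a library of the size of control sperm 3 holds 8.34 counts, and at the median DDT level one of the size of DDT sperm 4 holds 1.87 counts. The low depth of both libraries and their larger share of empty windows accompany these values, and the part they play in them was not tested.

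In 55 lower windows (31.6%) all 4 DDT sperm libraries were below all 3 control sperm libraries, beside 3.7% of all windows. The rule had fixed the order of 5 of these 7 libraries for most lower windows, so nothing is read from that excess. In 8 lower windows every DDT sperm library held 3 counts or fewer.

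**Figure D2:**
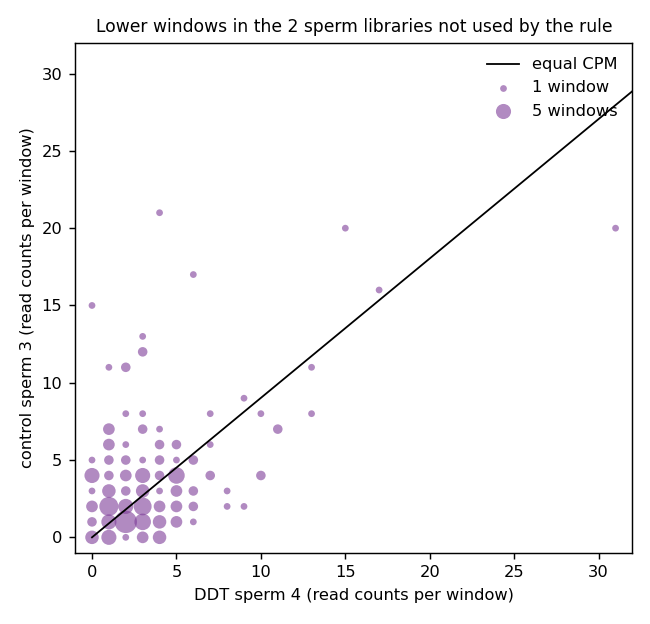
Read counts of the 174 lower windows in the sperm libraries that the rule did not use, DDT sperm 4 on the horizontal and control sperm 3 on the vertical axis; point area grows with the number of windows at a position, and the line marks equal CPM. The windows spread over both sides of the line (89 lower and 81 higher in DDT sperm 4), and most hold few counts in either library.

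Among the 39 lower windows with at least 10 counts in that pair, those of lowest ratio include the following. At 21789001 of chromosome 10, DDT sperm had 0.0715, 0.0668, 0.0623 and 0 CPM, against 0.636, 0.129 and 0.494 CPM in control sperm, with 0 counts in DDT sperm 4 and 15 in control sperm 3. At 210660001 of chromosome 2, DDT sperm had 0.0715, 0.0572, 0.0701 and 0.0297 CPM, against 0.269, 0.346 and 0.362 CPM in control sperm. At 65272001 of chromosome 1, DDT sperm had 0.188, 0.0191, 0.0312 and 0.0594 CPM, against 0.394, 0.397 and 0.362 CPM in control sperm. In all of these every DDT library was below every control library. The rule and the naming by a low ratio in the pair largely fix that order, so nothing is read from it. At 210660001 and 65272001 the 3 control libraries agreed closely, with means of 0.326 ± 0.0494 and 0.384 ± 0.0195 CPM (SD, n = 3). At 45456001 of chromosome 10, DDT sperm had 0.0625, 0.0668, 0.0623 and 0.119 CPM, against 0.608, 0.0103 and 0.691 CPM in control sperm, so control sperm 2 was the lowest library there. The window at 60532001 of chromosome 18, given above, was also among the 5 of lowest ratio. There control sperm 1 was the lowest library.

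At the other end of the same 39 windows, the 3 with the highest ratio ran against the rule, as 81 of the 174 did. At 182720001 of chromosome 2, DDT sperm had 0.107, 0.00954, 0.0545 and 0.267 CPM, against 0.2, 0.268 and 0.0658 CPM in control sperm. At 8972001 of chromosome 15, DDT sperm had 0.197, 0.0381, 0.179 and 0.238 CPM, against 0.622, 0.537 and 0.0658 CPM in control sperm. At 261231001 of chromosome 2, DDT sperm had 0.0893, 0.0477, 0.0857 and 0.238 CPM, against 0.311, 0.284 and 0.0987 CPM in control sperm. In each of them DDT sperm 4 was the highest DDT library and control sperm 3 the lowest control library, an order that naming by the ratio favours.

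The lower windows were unevenly spread along the genome. Joined where they lay within 100 kb of each other, 108 stood alone and 66 fell into groups, the largest of 18, 10 and 6 windows. Chromosome 16 held 20 lower windows, 11.5% of them against 3.46% of all windows and 18 of them in 1 group, and chromosome 14 held 19 (10.9% against 4.41%). Chromosome 1 held 23 (13.2% against 10.8%), and chromosomes 12, 19 and 20 held 1 each. Within 5 kb of a window that was empty in every library lay 26 lower windows (14.9%), against 5.82% of windows with sufficient control signal and 15.7% of the mirrored set. Near the ends of chromosomes, within 2 Mb, lay 2 of them (1.15%, against 2.53%). No lower window was within 10 kb of a window of the mirrored set, against 0.0951% of windows with sufficient control signal, so this absence is near the background.

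The largest group spanned 82 windows of chromosome 16, from 64898001 to 64980000. Of the 71 windows with counts, 68 were lower in DDT by the libraries of the rule, the 18 lower windows and 50 others. Among all windows 54.9% were. The same libraries chose the 18, so these values are a description and carry no test. Averaged over the 82 windows, the signal was 0.332, 0.33, 0.319 and 0.384 CPM in DDT sperm 1 to 4, against 0.772, 0.728 and 0.364 CPM in control sperm 1 to 3. The DDT libraries lay close together, and control sperm 3 lay among them and not with control sperm 1 and 2. The same stretch had 1.12, 1.16 and 1.19 CPM in DDT morulae and 1.31, 1.06 and 1.09 CPM in control morulae, groups that overlapped.

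Shorter groups on chromosomes 14 and 7 had the same shape. From 101972001 to 101993000 of chromosome 14, with 6 lower windows, the mean was 0.235, 0.22, 0.195 and 0.223 CPM in DDT sperm, against 0.937, 0.742 and 0.171 CPM in control sperm. From 10267001 to 10271000 of chromosome 7, where all 4 windows were lower windows, it was 0.0826, 0.105, 0.0896 and 0.0816 CPM in DDT sperm, against 0.459, 0.462 and 0.0905 CPM in control sperm. Control sperm 1 and 2 were high in both places and the other 5 sperm libraries low. In morulae the chromosome 14 group had 0.837, 0.901 and 0.889 CPM in DDT and 0.828, 0.788 and 0.77 CPM in control. Every DDT morula lay slightly above every control morula, opposite to the sperm libraries of the rule. In the held-out sperm pair DDT sperm 4 (0.223 CPM) was also above control sperm 3 (0.171 CPM). How often stretches of this length separate so in morulae was not counted. The chromosome 7 group had 0.998 to 1.1 CPM in DDT morulae and 1.03 to 1.4 CPM in control morulae, above every sperm library.

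Groups that rested on control sperm 1 formed another type. From 39471001 to 39492000 of chromosome 1, with 10 lower windows, the mean was 0.101, 0.113, 0.105 and 0.065 CPM in DDT sperm, against 0.652, 0.181 and 0.0533 CPM in control sperm. From 5730001 to 5733000 of chromosome 10, with 3 lower windows, it was 0.0208, 0.0286, 0.0338 and 0.0792 CPM in DDT sperm, against 0.497, 0.0206 and 0.0439 CPM in control sperm. In the first, control sperm 2 was somewhat above the DDT libraries, and in the second it was as low as the lowest of them.

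A short group on chromosome 6 kept its direction in all 3 control libraries. From 52199001 to 52204000, where 4 of 5 windows were lower windows and the fifth was also lower, the mean was 0.0357, 0.021, 0.0109 and 0.0178 CPM in DDT sperm, against 0.257, 0.26 and 0.158 CPM in control sperm. DDT sperm 4 held 3 counts and control sperm 3 held 24 counts over the 5 windows. In morulae the stretch had 0.111, 0.108 and 0.15 CPM in the DDT group and 0.173, 0.146 and 0.139 CPM in the control group, and the groups overlapped. Its window at 52203001 had 0.0447, 0.0381, 0.0156 and 0 CPM in DDT sperm 1 to 4, against 0.428, 0.366 and 0.132 CPM in control sperm 1 to 3.

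In the 34 lower windows of groups of 5 or more, control sperm 3 was at 0.5 times the mean of control sperm 1 and 2 or less in every one, and 13 were lower in DDT sperm 4 than in control sperm 3. Their pooled ratio in the held-out pair was 1.11 (95% counting interval 0.888 to 1.38). Among the 108 windows that stood alone, 75 had control sperm 3 at that level, 58 were lower in DDT sperm 4, and the pooled ratio was 0.809 (0.696 to 0.939). These intervals describe the pair of libraries and not the lineages.

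**Figure D3:**
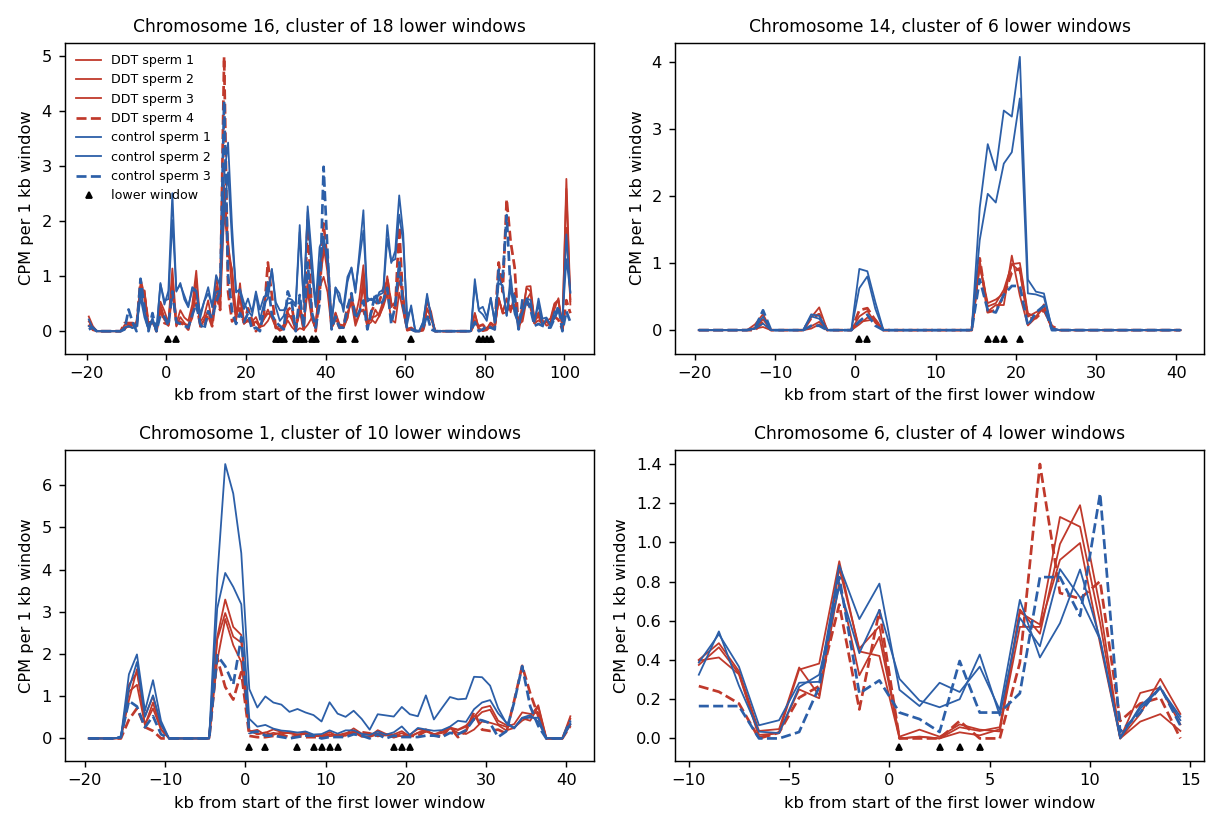
CPM per window in the 7 sperm libraries along 4 groups of lower windows, by distance in kb from the first of them; DDT sperm is red, control sperm is blue, dashed lines are DDT sperm 4 and control sperm 3, and triangles mark lower windows. On chromosomes 16 and 14 control sperm 1 and 2 stand above the other 5 libraries, on chromosome 1 control sperm 1 stands highest, and on chromosome 6 control sperm 3 also holds counts.

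Around the 108 single windows the difference was narrow. They were set apart for having no other lower window within 100 kb, which makes a narrow difference likely. At the windows themselves the DDT and control means of the rule were 0.0594 and 0.284 CPM, values that the choice of windows fixed. In the window just before they were 0.261 CPM in DDT and 0.334 CPM in control sperm, and in the window just after 0.271 CPM in DDT and 0.325 CPM in control sperm. Of the 216 adjacent windows 163 (75.5%) were lower in DDT, and of the 1296 windows at 5 to 10 kb 712 (54.9%) were, beside 54.9% of all windows. These flank values come from the libraries of the rule and carry no test. At the centre DDT sperm 4 averaged 0.0926 CPM and control sperm 3 averaged 0.115 CPM, and the morulae showed no dip that separated the lineages, with 0.252 to 0.287 CPM in DDT and 0.264 to 0.279 CPM in control morulae.

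**Figure D4:**
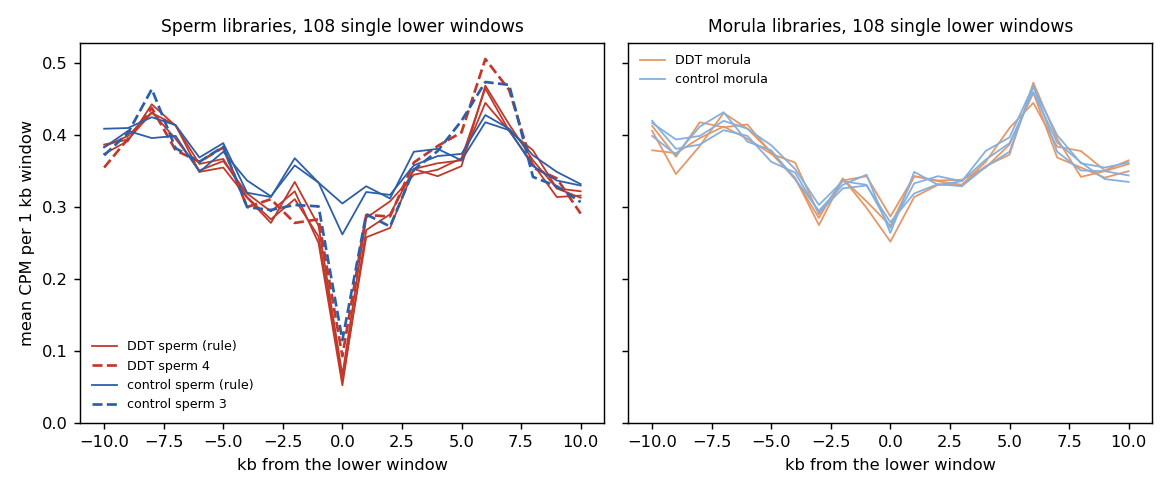
Mean CPM over the 108 single lower windows and the 10 windows on each side, by distance in kb, in sperm libraries (left) and morula libraries (right). DDT sperm 1 to 3 drop to 0.0521 to 0.0666 CPM at the centre and DDT sperm 4 to 0.0926 CPM, and control sperm 3 drops with them to 0.115 CPM, while the morula lines of both lineages run together.

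The morula libraries asked whether the lineage difference of the lower windows was present in embryos made from such sperm. Of the 174 windows, 170 had at least 30 counts over the 6 libraries and entered edgeR's quasi-likelihood test, which was fitted and adjusted over all 2568322 windows tested. None of the 170 passed at a Benjamini-Hochberg adjusted p under 0.05 in either direction, as none of all windows did (0% in each direction). At an unadjusted p under 0.05, 3 lower windows were lower and 7 higher in DDT morulae, beside 2.26% and 2.2% of all tested windows. DESeq2 passed none of them and 9 of all windows, and gave 3 of them an unadjusted p under 0.05, all higher in DDT. The median log2 difference, DDT over control, was -0.01 over the 170 windows and 0.01 over all tested windows of chromosomes 1 to 20, with a range of -1.30 to 1.87.

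Levels in morulae reached those of control sperm 1 and 2. The summed signal of the 174 windows was 76.4, 80.5 and 84 CPM in DDT morulae and 87.3, 76.4 and 77.9 CPM in control morulae, beside 12.5 to 18 CPM in DDT sperm and 21.9 to 74.5 CPM in control sperm. The DDT mean was below the control mean in 95 lower windows and above it in 79, where 51.6% of all tested windows were lower. All 3 DDT morulae lay below all 3 control morulae in 10 lower windows, 9 of them tested (background 5.65%), and above them in 15 (background 4.4%). With 1 morula library left out these counts were 13 to 23 below and 19 to 27 above. Leaving out a library can only raise such counts. The backgrounds given hold for all 6 libraries and the share over all windows was not counted for fewer, so nothing is read from the rise. Control morulae exceeded the control sperm mean of the rule in 92 of the 174 windows (52.9%), against 35.9% of windows with sufficient control signal and 54.5% of all windows.

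**Figure D5:**
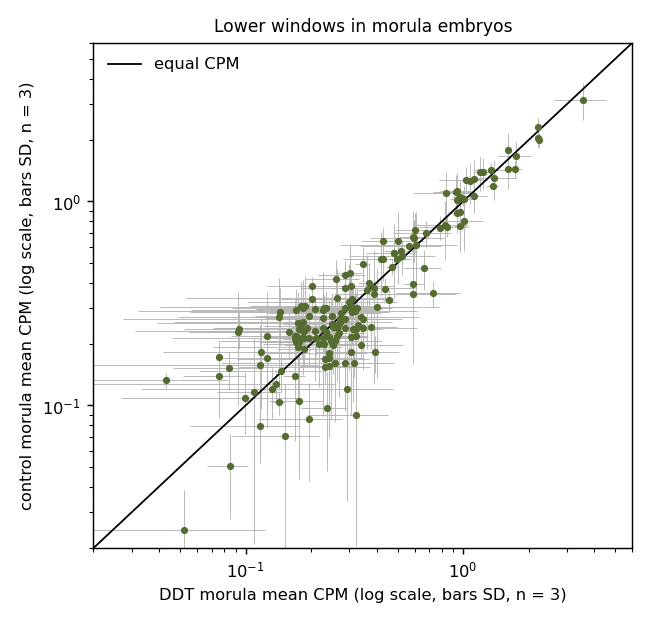
Mean CPM of the 174 lower windows in DDT morulae (horizontal) and control morulae (vertical), both on log axes, with bars for the SD of 3 libraries and lower bars shortened where they would leave the log axis; the line marks equal CPM. The windows lie along the line, 95 with a lower and 79 with a higher mean in DDT morulae than in control morulae.

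The 3 lower windows of smallest p in each direction in morulae are given here, so both directions are present by choice. All had an adjusted p of 1 by edgeR. The unadjusted p by edgeR was 0.00125 to 0.00984 in the 3 higher in DDT and 0.0309 to 0.0419 in the 3 lower. At 39480001 of chromosome 1, within the group carried by control sperm 1, DDT morulae had 0.925, 0.466 and 0.799 CPM, against 0.349, 0.306 and 0.409 CPM in control morulae. The log2 difference was 1.07 (SE 0.32), with every DDT morula above every control morula. The same window was low in DDT sperm, at 0.0447, 0.0668, 0.0545 and 0.0297 CPM, against 0.401, 0.103 and 0 CPM in control sperm.

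A further 2 sites were higher in DDT morulae. At 21790001 of chromosome 10, next to the window at 21789001 described above, DDT morulae had 0.423, 0.368 and 0.175 CPM, against 0.0152, 0.153 and 0.102 CPM in control morulae (log2 difference 1.87, SE 0.57). At 259411001 of chromosome 1, DDT morulae had 0.37, 0.515 and 0.3 CPM, against 0.152, 0.17 and 0.225 CPM in control morulae (1.15, SE 0.43). The neighbour at 21789001 did not share the difference, with 0.37 ± 0.0407 CPM in DDT morulae and 0.399 ± 0.0975 CPM in control morulae (SD, n = 3 each).

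In the direction of the rule, the smallest p was at 53187001 of chromosome 4. DDT morulae had 0.132, 0.0981 and 0.0499 CPM there, against 0.197, 0.289 and 0.225 CPM in control morulae, a log2 difference of -1.30 (SE 0.59). In sperm it had 0.0536, 0.0477, 0.0467 and 0.119 CPM in the DDT group, against 0.207, 0.222 and 0 CPM in the control group. At 272734001 of chromosome 1 the morula difference was -1.28 (SE 0.61), or -0.76 without control morula 1. At 48952001 of chromosome 17 it was -0.88 (SE 0.43). There DDT morulae had 0.238, 0.196 and 0.175 CPM, against 0.38, 0.34 and 0.429 CPM in control morulae, without overlap.

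In 4 of the 55 lower windows separated over all 7 sperm libraries, DDT lay below control without overlap in morulae too, and these were picked out after their values were seen. Among all 96798 windows so separated in sperm the share is 5.69%, so a count of 4 is near the background. They are at 212954001 of chromosome 2, 77660001 of chromosome 5, 52203001 of chromosome 6 and 64931001 of chromosome 16. The first had 0.0625, 0.0572, 0.0467 and 0.0891 CPM in DDT sperm, against 0.283, 0.294 and 0.263 CPM in control sperm, the closest agreement of the third control library among them. In morulae it had 0.264, 0.196 and 0.15 CPM in the DDT group, against 0.41, 0.306 and 0.286 CPM in the control group (log2 difference -0.70, SE 0.44, adjusted p = 1 by edgeR). The window at 52203001 had 0.0793, 0.0736 and 0.0749 CPM in DDT morulae, against 0.197, 0.136 and 0.184 CPM in control morulae (-1.13, SE 0.66). In 5 others of the 55 DDT was above control in morulae without overlap, beside 4.45% of all windows so separated.

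The authors' deposited table for sperm, which compares all 4 DDT with all 3 control libraries, gives 11 of the 174 windows an adjusted p under 0.05. Among windows of chromosomes 1 to 20 that are higher in control, 14 reach this level in the authors' deposited table (0.000666% of those with a p), and the rule used most of the same libraries, so nothing is read from the share. The smallest adjusted p in the authors' deposited table was 1.82e-08 at 52199001 of chromosome 6, and those at 52201001 and 52203001 were 0.00111 and 5.04e-05. For the strong windows on chromosome 14 near 101990001, where control sperm 3 was as low as DDT sperm, the authors' deposited table gives no adjusted p under 0.05. For morulae the authors' deposited table holds a p for 134 of the 174 windows, and none has an adjusted p under 0.05. Over all chromosomes only 2 windows have one, so this absence is near the background.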

How the data were processed

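Methylated DNA was measured by MeDIP-seq in 13 rat libraries, 7 of sperm and 6 of morulae. The authors deposited raw read counts per 1000 bp window of Rnor_6.0, made with FastQC, Trimmomatic, Bowtie2, SAMtools and edgeR, per the submitters' processing notes, which give no versions. Whether duplicate reads were removed is not given in the sources used here. Beside the counts the authors deposited edgeR results, per the file headers: a log2 fold change of control over DDT, a p-value and an adjusted p-value per window. A further 13 columns of RPKM were not used. Groups follow the labels.

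CPM was computed as counts per 1000000 counts of the library over all chromosomes. The 174 lower windows were chosen by the rule stated in the opening, and they and the sets beside them were chosen with earlier results of these data known. Morulae were tested on the counts (R 4.3.3, edgeR 4.0.16, quasi-likelihood test, TMM scaling, two-sided, Benjamini-Hochberg over all windows with at least 5 counts per library on average), without a replicate block. DESeq2 1.42.0 was an alternative. Python 3.11.15 with scipy 1.17.1 and pandas 2.3.3 gave the remaining values, and ratios of pooled counts carry exact 95% intervals for counting error. Depth ran from 30386626 to 193750804 counts per library, and a count of 3 was taken as the floor.

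Windows are named by position, 1-based, where they were among the 5 of highest control signal, the 5 of largest fold, the 3 longest runs, the 3 of smallest morula p per direction, or, among those with at least 10 counts in the held-out pair, the 5 of lowest and 3 of highest ratio there. Windows near 0, groups within 100 kb and the windows separated in both tissues were added after seeing the data. No genome or annotation of Rnor_6.0 was used here, so genes, sequences and CpG density are not given, and planned counts of gene lists were not made. Alternatives are listed in the closing section.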

Additional observations from a re-analysis of the deposited data

Results flagged for a closer look

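Among 35 lower windows named or described by rule, 5 had 1 DDT sperm library apart from the other 3, with a gap to the nearest above Dixon's 95% limit for groups of 4. About 1 in 20 groups of 4 like values passes that limit. Here DDT sperm 1 to 3 chose the windows and DDT sperm 4 did not, and some windows were named by their ratio in the held-out pair. The 5 of 35 can therefore not be set against 1 in 20. At 64932001 of chromosome 16, DDT sperm 1 had 0.125 CPM and the others 0.0286 to 0.0312 CPM. DDT sperm 4 was the library apart in the other 4, each time with 4 counts or fewer. It had 0.119 CPM at 53187001 of chromosome 4 (others 0.0467 to 0.0536 CPM), 0.0891 CPM at 48952001 of chromosome 17 (0.0381 to 0.0467 CPM), 0.119 CPM at 45456001 of chromosome 10 (0.0623 to 0.0668 CPM) and 0 CPM at 21789001 of chromosome 10 (0.0623 to 0.0715 CPM).

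In 5 lower windows every DDT sperm library was below every control sperm library and every DDT morula above every control morula. The difference between the tissues was not tested, and the rule had largely fixed the order in sperm. Of the 55 lower windows separated over all 7 sperm libraries these are 5, where 4.45% of all windows so separated in sperm are higher in DDT morulae without overlap. These are at 87634001 of chromosome 4, 126890001 of chromosome 5, 21790001 of chromosome 10, and 95538001 and 112240001 of chromosome 14. The one at 126890001 had 0.0447, 0.00954, 0.0312 and 0.0297 CPM in DDT sperm, against 0.636, 0.0619 and 0.165 CPM in control sperm. In morulae it had 0.211, 0.196 and 0.3 CPM in the DDT group, against 0.0759, 0.153 and 0.0613 CPM in the control group (log2 difference 1.27, SE 0.58, adjusted p = 1 by edgeR). In 4 other lower windows both tissues were lower in DDT without overlap.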

How the results depend on the processing

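The number of lower windows moved with every choice in the rule. It was 1741 at a control mean of at least 0.1 CPM and 31 at 0.5 CPM, 1037 at 3-fold and 22 at 8-fold, and 101 with TMM scaling. Leaving out 1 sperm library of the rule gave 344 to 691 windows. Settings added after seeing the data gave 718 with control sperm 3 in place of control sperm 1 (39 of the 174 among them), 559 in place of control sperm 2 (40 of the 174), and 94 with all 7 sperm libraries. In the held-out pair 89 lower windows were lower in DDT under both scalings, 23 of 39 with at least 10 counts, and 53 at 2-fold. The count without overlap in morulae was 10 (9 with TMM scaling), and 18, 13 and 23 without DDT morula 1, 2 and 3, and 18, 22 and 23 without control morula 1, 2 and 3. Fewer libraries can only raise this count, and the share over all windows was not counted for these settings. No lower window passed the morula test under library-size scaling, DESeq2 size factors, DESeq2, minimum totals of 1 count or 10 per library, any morula library left out, or in the authors' deposited p-values (added after seeing the data); at an unadjusted p under 0.05 there were 10. With a replicate block it was 0 as well (8 at an unadjusted p under 0.05). Over all windows of all chromosomes, DESeq2 passed 9 and the authors' deposited p-values 2. Deviations of same-numbered morula libraries correlated at -0.012, 0.000 and -0.005, and those of differently numbered ones at -0.006 to 0.010. Counting error in windows of few counts pulls such values towards 0. They therefore cannot tell whether the numbers pair the samples. The log2 differences of the 6 windows named for morulae kept their direction under all alternatives run.

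In the held-out pair 110 lower windows were at or under 3 counts in DDT sperm 4 and 100 in control sperm 3, so a 4-fold difference in a single window is often not detectable.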
